A study of Arabidopsis thaliana with 4 samples.

Results

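The 9 Arabidopsis genes of proline synthesis, breakdown and transport described here are the synthesis genes P5CS1, P5CS2 and P5CR, the breakdown genes ERD5, PRODH2 and P5CDH, and the transporter genes PROT1, PROT2 and PROT3. They were taken by locus, as all probes whose accession maps to AT2G39800, AT3G55610, AT5G14800, AT3G30775, AT5G38710, AT5G62530, AT2G39890, AT3G55740 or AT2G36590. The 9 genes have 16 probes, out of 43533 probes used and 25356 genes on the array. Every one of the 16 was flagged well above background on all 4 arrays and none was saturated, so all 9 genes were among the 20835 tested. PRODH2 is held by locus alone in the gene table, and that table calls P5CDH ALDH12A1.

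Proline is a compatible solute that plants build up when water is withdrawn. In plants it is made from glutamate by pyrroline-5-carboxylate synthase (P5CS) and pyrroline-5-carboxylate reductase (P5CR), and it is broken down in mitochondria by proline dehydrogenase (PRODH) and pyrroline-5-carboxylate dehydrogenase (P5CDH). Transporters of the PROT family carry proline and other compatible solutes across the plasma membrane. In Arabidopsis, P5CS1 is the copy best known for induction by abscisic acid and osmotic stress, and ERD5 (PRODH1) is best known for repression during dehydration and induction on rehydration.

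The series compared ced2, an Arabidopsis thaliana mutant, with its wild type (WT). Both are listed as ecotype gl1-Col0, and the WT is listed as an NCED3pro:LUC transgenic, a luciferase reporter of the abscisic acid synthesis gene NCED3. Whole seedlings 14 d old were put in a 40% polyethylene glycol (PEG) solution, which withdraws water, for 6 h, and each of the 2 RNA samples per genotype pooled 20 plants. No unstressed seedlings are among the samples, so the values compare genotypes under PEG and say nothing of the response to PEG.

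The direction of every difference rests on a choice of labels. The authors' value table carries the same measurements as the scanner files, but each of its columns matched a file labelled as the other genotype (r = 0.999999 over the probes, with 100% of values within 0.01), while its correlation with the scanner file of its own sample was between -0.573 and -0.369. The scanner files' labels are followed here, as "ced2 files" and "WT files"; under the value table's labels each sign below turns round. NCED3 read -0.65 and -0.67 in the ced2 files, against 0.68 and 0.67 in the WT files, and VSR1, a vacuolar sorting receptor gene, read -0.85 and -0.82 in the ced2 files, against 2.80 and 2.87 in the WT files. The labels do not name the gene affected in ced2, so neither gene was used to settle the labels. Whole seedlings hold both shoot and root, and markers of both were present: each of the 5 shoot and 5 root markers was well above background on every array. On the 4 arrays the median processed signal of a probe was 532 and 642 in the ced2 files and 411 and 346 in the WT files, and 73.9% to 78.1% of probes were well above background.

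Values are log2 of the processed signal minus the 75th percentile of the same array, so that 0 marks a probe as bright as that percentile. Differences are ced2 files minus WT files, tested with limma over all 20835 genes, and a gene passed at a Benjamini-Hochberg adjusted p under 0.05. Replicate arrays lay close together. For 17 probes printed in repeat, the median SD of repeat spots within an array was 0.0630 to 0.0846, against 0.0424 between the ced2 arrays and 0.0503 between the WT arrays for the same spots. The p-values therefore measure a very small spread between arrays, although the labels call the replicates biological. Arrays of both genotypes shared 1 slide and 1 scan. The ced2 files came from slide positions 4 and 3 and the WT files from positions 1 and 2, and any effect of position cannot be told apart from genotype.

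By this test 7 of the 9 proline genes differed, 3 higher and 4 lower in the ced2 files. Over all genes tested 77.9% passed, 42.4% higher and 35.6% lower, so the count of 7 is close to what the array as a whole shows. The median difference was -0.13 over the 9 genes and 0.05 over all genes, and the median absolute difference was 0.43 against 0.36. What distinguishes the members from each other is direction and size: both P5CS genes fell, P5CR rose slightly, P5CDH and PROT2 fell, and PROT1 and PROT3 rose. PROT3 was the 1 member past 2-fold, a size that 11.3% of all genes passed in either direction and 8.01% passed upward.

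**Figure D1:**
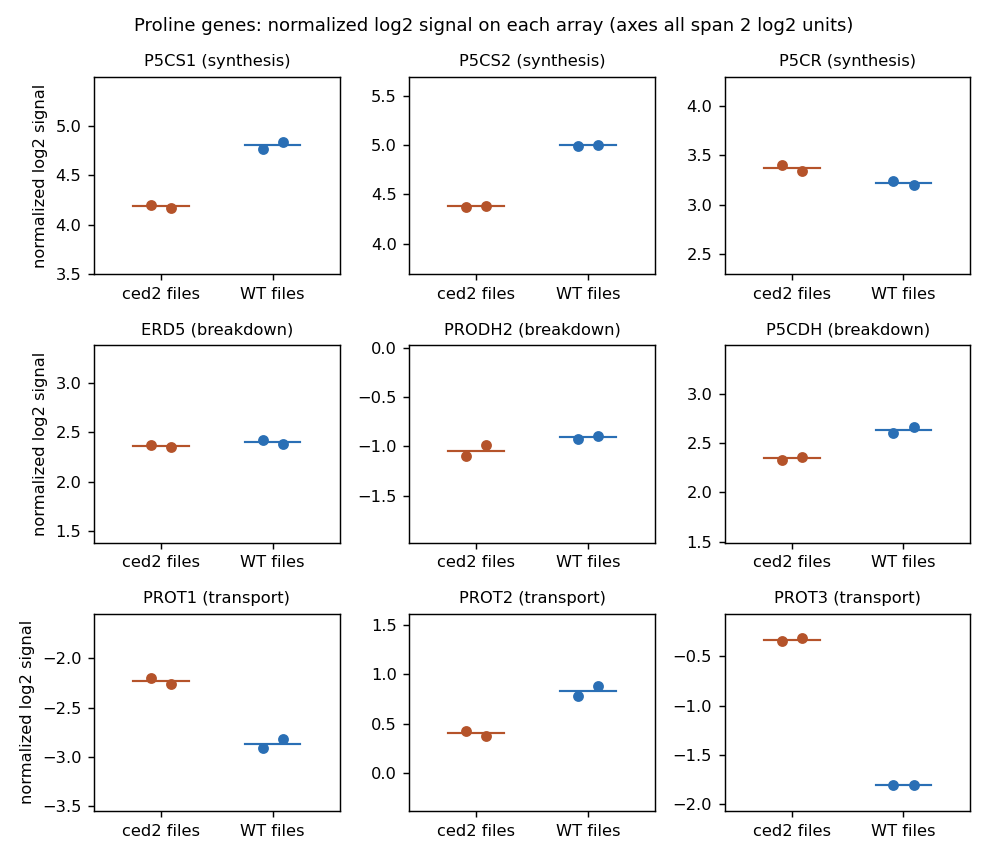
Normalized log2 signal (processed signal relative to the 75th percentile of its array) of the brightest probe of each of the 9 proline genes, with 1 point per array, the ced2 files on the left and the WT files on the right of each panel, and a bar at each mean (n = 2). Each vertical axis spans 2 log2 units, and the gap between the groups is widest for PROT3, at 1.47, and narrowest for ERD5, at -0.04.

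Among the synthesis genes, P5CS1, the synthase for the first committed step, read 4.20 and 4.17 in the ced2 files, against 4.77 and 4.84 in the WT files. Both ced2 arrays were below both WT arrays. The mean was 4.18 ± 0.02 in the ced2 files and 4.81 ± 0.05 in the WT files (SD, n = 2 each), so that P5CS1 fell by 0.62, or 1.54-fold (SE 0.0363, limma adjusted p = 0.000651). P5CS2, the second synthase gene, which is known as the copy needed for growth and embryo development, read 4.38 and 4.38 in the ced2 files, against 4.995 and 5.002 in the WT files. Its groups were likewise apart, and it also fell by 0.62 (SE 0.0212, limma adjusted p = 0.000265). The log2 ratio of the P5CS1 probe to the P5CS2 probe within an array was -0.18 and -0.21 in the ced2 files and -0.22 and -0.16 in the WT files, ranges that overlap. P5CS1 and P5CS2 are close copies, and how far their probes cross-hybridize was not tested, as the probe sequences were not used here.

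The size of the P5CS1 difference depended on the probe and, for the dimmer probe, on the processing. Over all probes with a gene, fitted each on its own, 77.1% passed, and 10 of the 16 member probes did. A second P5CS1 probe, far dimmer at processed signals of 83 and 92 in the ced2 files and 71 and 58 in the WT files, differed by 0.03 (95% interval -0.13 to 0.19, limma adjusted p over all probes = 0.687). It fell by 0.17 with quantile normalization (adjusted p = 0.0382) and by 0.92 with normexp (adjusted p = 0.00353). The first probe had processed signals of 68437 and 80340 in the ced2 files and 91215 and 80534 in the WT files. When the probes of a gene were averaged, P5CS1 fell by 0.30 (limma adjusted p = 0.00474). The second P5CS2 probe was bright, and it read 2.74 and 2.72 in the ced2 files, against 3.11 and 3.09 in the WT files. It fell by 0.37 (95% interval -0.44 to -0.30, limma adjusted p over all probes = 0.000872), less than the first probe.

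P5CR, the reductase that completes proline synthesis and is single-copy in Arabidopsis, moved the other way. It read 3.40 and 3.34 in the ced2 files, against 3.24 and 3.20 in the WT files, and the groups did not overlap. P5CR rose by 0.15, a 1.11-fold difference (SE 0.0349, limma adjusted p = 0.0234). This call was lost when ced2 replicate 1 was left out (0.12, adjusted p = 0.0980), and likewise for WT replicate 1 (0.17, adjusted p = 0.0588) or WT replicate 2 (0.13, adjusted p = 0.0928). It did not meet the stricter threshold of 0.01. With normexp background correction the difference was 0.25.

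Of the breakdown genes, ERD5, the dehydrogenase of the first step, read 2.38 and 2.35 in the ced2 files, against 2.42 and 2.38 in the WT files. The groups did not overlap, but the gap between their means was smaller than the gap between the WT replicates. ERD5 did not pass, with a difference of -0.04 (95% interval -0.12 to 0.05, limma adjusted p = 0.306). Under quantile normalization (0.05) and for the mean over its probes (0.03) the sign was the opposite. The remaining 3 ERD5 probes, all dimmer, differed by -0.01, 0.13 and 0.02, and none of these passed over all probes. These dim probes depended on the processing. With quantile normalization they differed by -0.17, -0.09 and -0.17, and the dimmest passed (limma adjusted p over all probes = 0.0425). With normexp they differed by -0.17, -0.29 and -1.04, and the last 2 passed (limma adjusted p over all probes = 0.0188 and 0.00184).

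PRODH2, the second proline dehydrogenase gene, read -1.10 and -0.98 in the ced2 files, against -0.92 and -0.90 in the WT files. Both ced2 arrays were lower, but the ced2 replicates were 0.117 apart. The difference was -0.13 (SE 0.0498, 95% interval -0.28 to 0.01, limma adjusted p = 0.0786) and did not pass. It passed with quantile normalization (-0.20, adjusted p = 0.0347), with an intensity trend in the variance prior (adjusted p = 0.0336) and without ced2 replicate 2 (-0.19, adjusted p = 0.0326). Without ced2 replicate 1 the difference was -0.07 (adjusted p = 0.193).

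P5CDH, the mitochondrial enzyme that returns pyrroline-5-carboxylate to glutamate, read 2.33 and 2.36 in the ced2 files, against 2.60 and 2.66 in the WT files. The groups did not overlap. P5CDH fell by 0.28, or 1.22-fold (SE 0.0323, limma adjusted p = 0.00328). Its second probe was dim and variable, at -5.20 and -5.33 in the ced2 files against -5.002 and -4.709 in the WT files. That probe fell by 0.41 (95% interval -0.77 to -0.04, limma adjusted p over all probes = 0.0476).

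**Figure D2:**
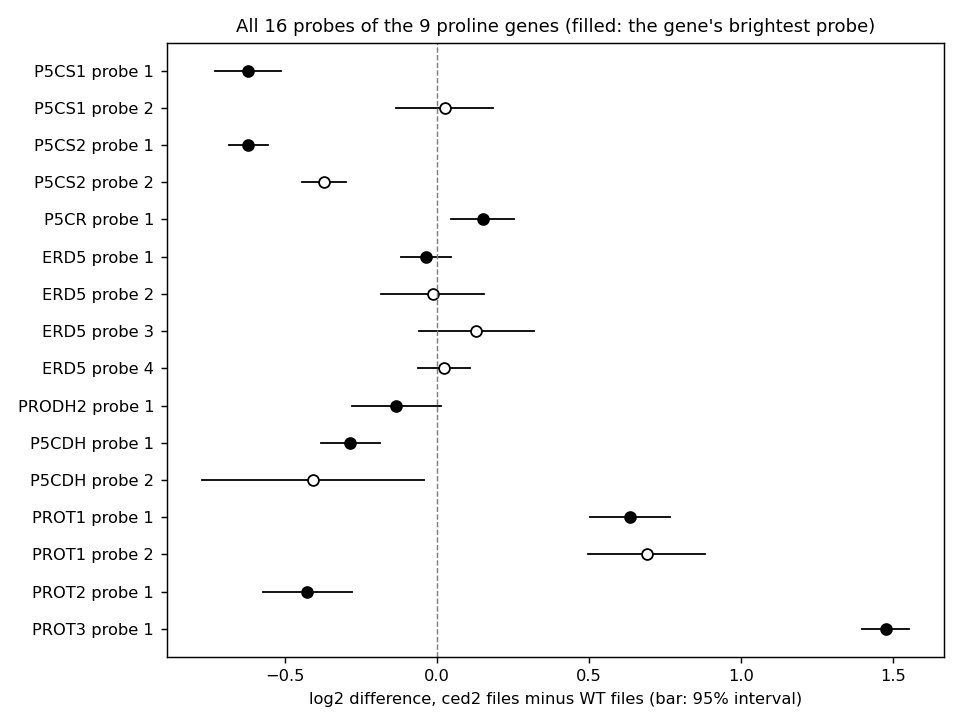
Difference on the log2 scale, ced2 files minus WT files, of each of the 16 probes of the 9 proline genes, with bars for 95% intervals from limma fitted over all probes with a gene. Probes are numbered from the brightest in each gene, and filled points mark the probe that represents the gene. Under the 75th percentile scaling shown, the P5CS1 probes lie apart (-0.62 and 0.03) and the PROT1 probes together (0.63 and 0.69); with normexp they were at -0.62 and -0.92, and at 0.36 and 0.03.

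The transporter genes showed the widest spread of the 3 roles. PROT3, known in Arabidopsis from above-ground epidermis, read -0.35 and -0.31 in the ced2 files, against -1.80 and -1.81 in the WT files. Processed signals of its single probe were 2921 and 3597 in the ced2 files and 957 and 802 in the WT files, so the groups were far apart before any scaling. PROT3 rose by 1.47, or 2.78-fold (SE 0.0256, limma adjusted p = 0.000161), a larger absolute difference than 94.9% of the genes tested had. The same share was 73.4% for PROT1, 72.8% for P5CS1, 72.7% for P5CS2, 57.2% for PROT2, 40.9% for P5CDH and 22.9% for P5CR.

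PROT1, known from vascular tissue, read -2.20 and -2.26 in the ced2 files, against -2.91 and -2.82 in the WT files. The groups were apart, and PROT1 rose by 0.63, or 1.55-fold (SE 0.0446, limma adjusted p = 0.000977). Its second probe rose by 0.69 (95% interval 0.50 to 0.88, limma adjusted p over all probes = 0.00206). With normexp PROT1 rose by 0.36 (limma adjusted p = 0.00964), and the second probe differed by 0.03 and did not pass (limma adjusted p = 0.616).

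PROT2, known from root epidermis and for induction by salt and water stress, read 0.43 and 0.38 in the ced2 files, against 0.78 and 0.88 in the WT files. The groups did not overlap, and PROT2 fell by 0.43, or 1.34-fold (SE 0.0498, limma adjusted p = 0.00355). Within an array, the log2 ratio of PROT2 to PROT3 was 0.78 and 0.69 in the ced2 files, against 2.58 and 2.69 in the WT files, a shift of -1.90. The ratio of PROT1 to PROT2 was -2.63 and -2.64 in the ced2 files, against -3.68 and -3.71 in the WT files, a shift of 1.06. A single scaling factor per array cancels in such a ratio, but other processing moves it: the shift of PROT2 over PROT3 was -1.81 with quantile normalization and -1.60 with normexp, and that of PROT1 over PROT2 was 0.86 and 0.70. The levels of different probes cannot be set against each other, so only the shifts between groups are compared.

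Tissue markers moved beside the transporters. All 5 root markers rose, from 0.91 for PYK10 to 1.76 for COBL9, where 42.4% of all genes tested were called higher. Apart from PYK10 they were dim, with normalized log2 signals between -4.61 and -2.12, and their dependence on the processing was not tested. COBL9, EXPA7, EXPA18 and RHD6 are root hair genes, so the list does not stand for the root as a whole. The summed unscaled signal of the 5 was 138737 and 161579 in the ced2 files, against 64192 and 55543 in the WT files. Nearly all of that sum is PYK10; without it the sum was 2139 and 2568 in the ced2 files, against 727 and 602 in the WT files. Of the 5 shoot markers, LHCB2.1 rose by 0.77, LHCB1.3 fell by 0.43 and 3 did not pass, at -0.27 (RBCS1A), -0.28 (CAB3) and -0.39 (PSBO1). The unscaled sums of the 5 were 1668715 and 1705218 in the ced2 files and 1624296 and 1600727 in the WT files. Every unscaled sum here favours the ced2 arrays, which were brighter. The 75th percentile of processed signal was 3724 and 4465 on them, against 3342 and 2807 on the WT arrays. SUC2, the sucrose carrier gene of phloem companion cells, rose by 0.17. The root marker difference had the sign of PROT1 and PROT3 and the opposite sign to PROT2. The part of tissue proportions in these results was not tested, and in whole seedlings fewer cells of a type and less RNA per cell cannot be told apart. Of the other organ markers, MS1 and OLEO1 were not well above background on any array. AG, a floral organ identity gene, was well above background on 1 of the ced2 arrays and on both WT arrays, and did not pass (-0.44, limma adjusted p = 0.545). AP3, a petal and stamen gene, and the seed storage gene CRA1 rose by 1.77 and 2.30, both at low signals, with unscaled sums for the flower and pollen list of 117 and 182 in the ced2 files and 67 and 51 in the WT files, and for the seed list of 273 and 325 against 55 and 38.

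The balance of synthesis over breakdown was described as ratios within an array. The log2 ratio of P5CS1 to ERD5 was 1.82 and 1.82 in the ced2 files, against 2.35 and 2.46 in the WT files, a shift of -0.59. For P5CS1 over P5CDH the ratio was 1.87 and 1.81 in the ced2 files, against 2.17 and 2.18 in the WT files, a smaller shift of -0.34. With quantile normalization and normexp these shifts were -0.56 and -0.61 for ERD5 and -0.31 and -0.37 for P5CDH. Within synthesis the ratio of P5CS1 to P5CR shifted by -0.77, with 0.80 and 0.83 in the ced2 files against 1.54 and 1.64 in the WT files. For P5CR over P5CDH the shift was 0.44. All 9 ratios of a synthesis to a breakdown gene had groups that did not overlap. The shift was downward for those with P5CS1 or P5CS2 and upward for those with P5CR. These ratios recombine the gene values given above and are not 9 separate observations. Of single genes over the whole array 90.2% had groups that did not overlap, and the share for ratios of other gene pairs was not counted. The shifts were described and not tested; with 2 against 2 arrays, an exact two-sided permutation test cannot give a p below 0.333.

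Scaling and background correction changed several of these differences, and not only the smaller ones. PROT1 went from 0.63 to 0.36 with normexp. The unscaled processed signals of the groups did not overlap for P5CR, ERD5, PROT1 and PROT3, which were higher in the ced2 files, or for P5CS1, which was lower. For P5CS1 the gap was narrow, with 80340 on the brighter ced2 array against 80534 on the dimmer WT array. The unscaled signals overlapped for the other 4, such as PROT2 at 5015 and 5796 in the ced2 files and 5722 and 5176 in the WT files. Over all genes tested the unscaled groups did not overlap for 72.9%, with 64.9% higher and 7.98% lower on the ced2 arrays, which were the brighter ones. Quantile normalization and normexp kept the direction and the call of each of the 7 genes past the threshold. Normexp moved the median difference of all genes from 0.05 to -0.14. Measured against that median, the difference under normexp was -0.48 for P5CS1, -0.37 for P5CS2, 0.39 for P5CR, -0.11 for P5CDH, 0.50 for PROT1, -0.20 for PROT2 and 1.40 for PROT3.

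**Figure D3:**
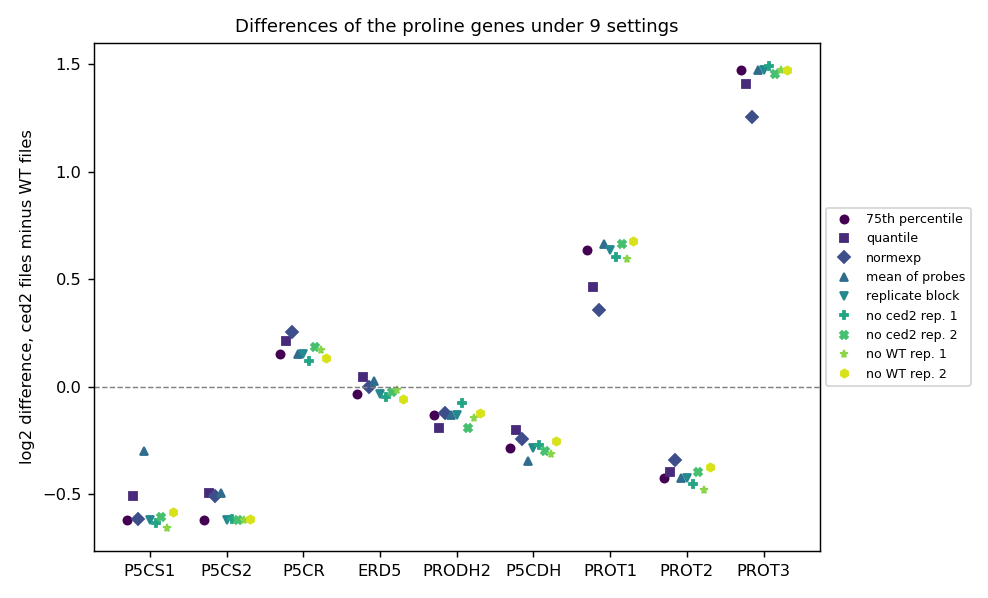
Difference on the log2 scale, ced2 files minus WT files, of the 9 proline genes under 9 settings: the 75th percentile scaling used for the values, quantile normalization, normexp, the averaged probes of a gene, the replicate block and each array left out. Points stay on 1 side of 0 for all genes but ERD5; the mean of probes brings P5CS1 to -0.30 and normexp brings PROT1 to 0.36.

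Arginine and ornithine can also be turned into pyrroline-5-carboxylate, and 5 genes of that route were listed. Whether the route feeds proline in these seedlings was not tested. In that list all 5 genes passed, 2 higher and 3 lower. Over all genes tested 77.9% passed, 42.4% higher and 35.6% lower, and these shares also apply to the counts of the lists that follow. BAC2, a mitochondrial carrier of basic amino acids, read 0.22 and 0.17 in the ced2 files, against 2.03 and 2.01 in the WT files, and fell by 1.82, or 3.53-fold (SE 0.0291, limma adjusted p = 0.00016). OAT, the ornithine aminotransferase of mitochondria, read 2.05 and 2.03 in the ced2 files, against 2.74 and 2.76 in the WT files, and fell by 0.71 (limma adjusted p = 0.000274). ARGAH2, an arginase gene, read 2.33 and 2.35 in the ced2 files, against 1.64 and 1.65 in the WT files, and rose by 0.69 (limma adjusted p = 0.000264). The second arginase gene, ARGAH1, fell by 0.15, and the carrier gene BAC1 rose by 0.16. OAT and both P5CS genes make the same intermediate, pyrroline-5-carboxylate, and all 3 fell. The proline dehydrogenases also make it, during breakdown, and their genes did not pass, at -0.04 for ERD5 and -0.13 for PRODH2.

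Glutamate is the substrate of P5CS and the end product of breakdown. Of 12 genes of glutamate supply, 4 were higher, 6 lower and 2 did not pass, with a median difference of -0.20. The cytosolic glutamine synthetase genes split: GLN1;2 rose by 0.38 (limma adjusted p = 0.00066), with 4.72 and 4.71 in the ced2 files against 4.32 and 4.34 in the WT files. GLN1;3 read -0.08 and -0.07 in the ced2 files, against 0.23 and 0.24 in the WT files, and fell by 0.31 (limma adjusted p = 0.000977). GDH1, a glutamate dehydrogenase gene, read 0.01 and 0.03 in the ced2 files, against 0.39 and 0.38 in the WT files, and fell by 0.37 (limma adjusted p = 0.000785).

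Other amino acid permeases also carry proline among their substrates. Of 10 listed, AAP8 was not well above background on any array, 3 were higher, 3 lower and 3 did not pass. AAP6 read -4.10 and -4.15 in the ced2 files, against -6.42 and -6.40 in the WT files. It rose by 2.28, or 4.87-fold (SE 0.0285, limma adjusted p = 0.00016). These are dim signals: in the WT files the dim second P5CS1 probe read -5.55 and -5.59, above AAP6. The size of the AAP6 difference under other processing was not examined. AAP5 read -0.06 and -0.02 in the ced2 files, against -0.60 and -0.61 in the WT files, and rose by 0.57 (limma adjusted p = 0.000424). LHT2 read -2.56 and -2.56 in the ced2 files, against -1.93 and -1.80 in the WT files, and fell by 0.69 (limma adjusted p = 0.00117). Both families of proline carriers thus held members that rose and members that fell.

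Basic leucine zipper (bZIP) factors of groups C and S1 are known to activate ERD5 in Arabidopsis. Of the 9 listed, 4 of group S1 (BZIP1, BZIP2, BZIP11 and BZIP53) matched no probe by accession and were not analysed here, and the other 5 passed, 2 higher and 3 lower. BZIP9 read 2.33 and 2.28 in the ced2 files, against 2.84 and 2.84 in the WT files, and fell by 0.53 (limma adjusted p = 0.0005). BZIP25 fell by 0.37 and BZIP63 fell by 0.20 (limma adjusted p = 0.00081 and 0.00863). All 3 that fell belong to group C, whose member BZIP10 rose by 0.09. Over the 4 lists, 26 of 31 genes tested passed, against 77.9% of all genes.

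**Figure D4:**
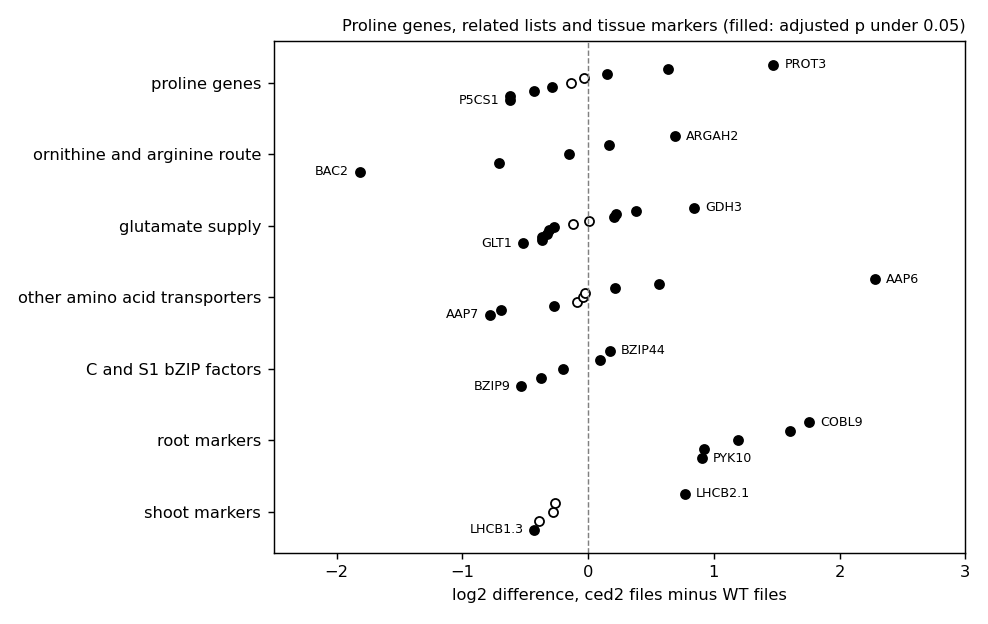
Difference on the log2 scale, ced2 files minus WT files, of the 9 proline genes, of the tested genes of 4 related lists and of the root and shoot markers; each point is a gene, filled where limma's adjusted p was under 0.05, and the lowest and highest gene of each row are named. BAC2 at -1.82 and AAP6 at 2.28 are the extremes of the 4 related lists, and all root markers are at 0.91 or above. AAP6 was dim, above all in the WT files.

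Genes with the pattern closest to P5CS1, by Euclidean distance over the 4 arrays between values centred on each gene's mean, were KMS1 (distance 0.00669), CYSA (0.0110) and AT1G10890 (0.0161). For ERD5 they were EMB3006 (0.0079), AT5G14530 (0.0092) and AT5G52890 (0.00975). Within a distance of 0.1 lay 647 genes for P5CS1 and 2178 for ERD5. With 4 arrays in 2 groups, such likeness is little more than an equal difference between the groups.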

How the data were processed

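RNA of whole seedlings was hybridized to 4 one-colour (Cy3) Agilent arrays. Spots were quantified in Agilent Feature Extraction 10.7.1.1, per the submitters' processing notes, and per the file headers the deposited intensity of a spot is background-subtracted and spatially detrended, with no scaling between arrays. The authors' value table holds deposited log2 values whose scale and centring are not stated; set against the scanner files, it held log2 processed signal minus the 75th percentile with each probe centred on its median. Medians of the columns were 0.01 and -0.03 for the ced2 columns and 0.08 and -0.03 for the WT columns.

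Control and outlier spots were left out, spots of a probe were averaged, and 70 of 43603 probes that lost all spots on an array were dropped. Probe accessions, stripped of versions, were looked up in a RefSeq gene table of TAIR10.1, used for names and gene order; 34236 probes had a gene and 9297 had none. The array header names another build, so no coordinates are given. A gene was represented by its brightest probe, and tested where the flag for a signal well above background was set on both arrays of 1 genotype or of both. limma 3.58.1 (lmFit, eBayes, R 4.3.3) was fitted over all genes, two-sided, with 2 residual and 1.49 prior degrees of freedom, and it was tested on simulated data. The number of arrays limits the precision.

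Named are the 9 members, up to 3 genes of each related list past the threshold by smallest p, the 3 nearest genes of P5CS1 and ERD5, and NCED3 and VSR1; tissue markers and figure labels come besides. ARGAH1, BAC1, BZIP10 and the genes named between 2 members on a chromosome fall outside this rule and were chosen after their values were seen. The members and lists were chosen with earlier results of these data known. Alternatives were quantile normalization, normexp with an offset of 50 on median spot and background signals, other filters on dim probes, the value table, the mean over probes, every probe on its own, a replicate block, an intensity trend, an adjusted p of 0.01 and each array left out. The value table with columns assigned to matching scanner files, and probe counts and ratios under other scalings, were added after seeing the data.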

Additional observations from a re-analysis of the deposited data

How the results depend on the processing

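Of 135 comparisons of a gene's value with an alternative, 117 kept direction and call, 11 turned in sign, 3 came to pass and 4 ceased to pass; the last 7 concern P5CR and PRODH2 and stand with those genes. Under the value table's own labels all 9 signs turned: P5CS1 0.62, P5CS2 0.62, P5CR -0.15, ERD5 0.0363, PRODH2 0.13, P5CDH 0.29, PROT1 -0.63, PROT2 0.43 and PROT3 -1.47. With each column under the scanner file it matches, all 9 kept sign and call, as these are the same measurements again. The other 2 turns were ERD5 with quantile normalization (0.0465) and with the mean over probes (0.0255); the cause was not tested. Between 6 and 8 members passed under every alternative. The replicate numbers share no stated pairing (r = 0.0473 between replicate differences of the 2 genotypes over genes); with the replicate block 15687 genes passed, against 16239 without it, and the members' calls did not change. With 1 array left out, 14142 to 15297 genes and 6 to 8 members passed. With every probe on its own 22056 probes passed. Of calls over all genes 54.4% were higher in the ced2 files, 50.9% with quantile normalization and 36.4% with normexp. Of the 16 member probes 10 passed, against 13 with quantile normalization and 12 with normexp. The share of all probes that passed under those 2 settings was not counted, so the change is not read as particular to the members. Of the related genes 26 passed, against 23 and 26. Over all 20835 genes tested 16239 passed, against 16124 with quantile normalization and 15633 with normexp. Dim probes limit the second probes of P5CS1 and P5CDH, which lay near 100 units of processed signal.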

Other observations

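A synthase gene and a transporter gene of proline lie near each other on chromosome 2 (P5CS1 and PROT1) and on chromosome 3 (P5CS2 and PROT2). Between P5CS1 and PROT1 the gene table lists 11 protein-coding genes, of which 9 were tested, 3 higher, 4 lower and 2 not past the threshold, with differences from -0.42 for AT2G39805 to 1.05 for MYB25 and a median of -0.04. Between P5CS2 and PROT2 it lists 16, of which 11 were tested, 9 higher, 1 lower and 1 not past. Their differences ran from -0.19 for AT3G55640 to 0.86 for ROPGEF6, with a median of 0.27. Over all genes tested, 42.4% were called higher and 35.6% lower. P5CS2 and PROT2 fell by 0.62 and 0.43, so both lay below the lowest of the tested genes between them. On chromosome 2, P5CS1 fell by 0.62, below the lowest gene between, and PROT1 rose by 0.63, which MYB25 exceeded. These stretches were looked at after the members' values were seen, and no test was made.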
